A study of Mus musculus with 12 samples.

Results

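The ampicillin effect that spleen and mesenteric lymph nodes had in common was examined in all 12 samples of the series. For each gene, the log2 difference between ampicillin and control samples was taken in each tissue, and the mean of both differences was tested with tissue in the model. A gene was counted as shared when that mean effect had an adjusted p under 0.05 both with scaling to housekeeping genes and with TMM scaling (a trimmed mean over the panel's genes), and when both tissues showed the same sign with both scalings. Of 445 tested genes, 55 were shared, 43 of them lower and 12 higher after ampicillin. The criteria did not ask for a call in each tissue by itself. With housekeeping scaling, 33 of the 43 lower genes had an adjusted p under 0.05 in spleen and 1 in nodes. Of the 12 higher genes, 4 did in spleen and 1 in nodes. With TMM scaling these counts were 10 and 12 for the lower genes and 6 and 3 for the higher genes.

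All mice carried the label C57BL6 Exon 16 KO Hemophilia A, the controls included, so every comparison was made within a strain that models deficiency of a clotting factor. The treated groups were gavaged with ampicillin when 3 weeks old, and tissues of treated and untreated mice were collected at 6 weeks. The 4 groups were ampicillin spleen, control spleen, ampicillin mesenteric lymph nodes and control mesenteric lymph nodes, with 3 samples in each. The labels number 12 mice, 1 per sample, and describe no control that was gavaged without ampicillin, so gavage and ampicillin cannot be told apart. RNA was measured on an nCounter panel of mouse immunology genes (NanoString), which counts single RNA molecules through barcoded probes and needs no amplification.

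Ampicillin is a broad-spectrum beta-lactam antibiotic that depletes gut bacteria. The mesenteric lymph nodes receive lymph and migrating dendritic cells from the intestine, whereas the spleen filters blood. Both organs are built of T cell zones and B cell follicles held in place by stromal cells, which secrete chemokines such as CXCL13 and CXCL12 and depend on lymphotoxin signals from lymphocytes.

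Total counts per sample ranged from 396950 to 738489. The 11 tested T cell markers that are not shared genes summed to 8207 to 9495 scaled counts in the control spleens and to 8608, 5773 and 5344 in ampicillin spleens 1, 2 and 3. The 9 erythroid and platelet markers summed to 5464 to 9299 in the control spleens, to 4222, 16485 and 14426 in ampicillin spleens 1, 2 and 3, and to 1368 to 1569 in the nodes. Ampicillin spleens 2 and 3 thus stood apart from ampicillin spleen 1, with less T cell and more erythroid signal, and the shared calls and spleen effects without them are given at the end. The part of these cell populations in the gene results was not tested. In such whole-tissue RNA, fewer cells of a type and less RNA per cell cannot be told apart.

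The split of calls into higher and lower depended on the scaling. With housekeeping scaling, 102 genes (22.9% of those tested) passed edgeR's quasi-likelihood test of the mean effect, 13 higher (2.92%) and 89 lower (20%). With TMM scaling, 97 genes (21.8%) passed, 53 higher (11.9%) and 44 lower (9.89%). The median log2 effect of all tested genes was -0.10 with housekeeping scaling and 0.01 with TMM scaling, a shift of 0.115. Effects and tests of single genes are given against 0 and not against this median. The 14 housekeeping genes themselves, under TMM scaling, had a median log2 effect of 0.15, with 12 of 14 above 0. Both scalings called 57 genes (12.8%), of which the 55 shared genes (12.4%) kept 1 sign in both tissues: 43 were lower (9.66%) and 12 higher (2.70%). The 45 genes called with housekeeping scaling alone were all lower, and the 40 called with TMM alone were all higher.

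**Figure D1:**
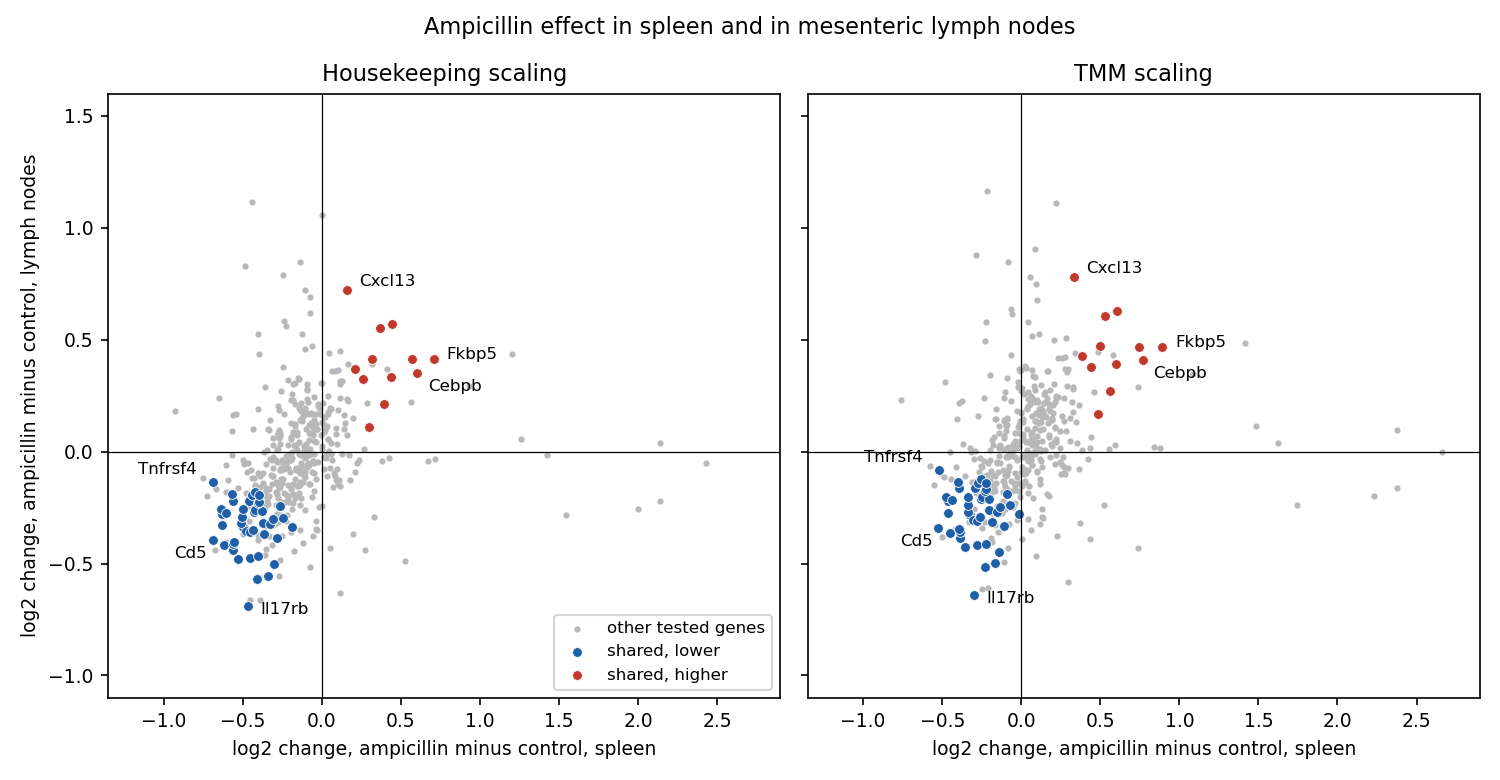
Each point is a tested gene, with its log2 ampicillin effect in spleen on the x axis and in lymph nodes on the y axis, with housekeeping scaling (left) and TMM scaling (right). The 43 shared lower genes (blue) lie in the lower left quadrant and the 12 shared higher genes (red) in the upper right one in both panels, while the cloud of other genes shifts between panels.

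Among the shared lower genes, the median log2 mean effect was -0.40 with housekeeping scaling, over a range of -0.58 to -0.25, and -0.29 with TMM scaling. By tissue, the median was -0.45 in spleen and -0.32 in nodes with housekeeping scaling, and -0.28 and -0.27 with TMM scaling. The shared higher genes had a median of 0.41, over a range of 0.20 to 0.56, with housekeeping scaling and of 0.53 with TMM scaling. These sizes describe genes that the same test selected. The treated and control samples did not overlap in either tissue, with either scaling, for 25 of the shared lower genes and 5 of the shared higher genes, against 27 (6.07%) and 5 (1.12%) of all tested genes.

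Of the 20 tested genes of the T cell receptor complex and its proximal signalling, 10 fell and 0 rose with housekeeping scaling, and 5 fell and 1 rose with TMM scaling, against the 20% and 9.89% lower among all tested genes. The 5 that fell with both were Cd5, Cd6, Cd2, Cd4 and Nfatc2. The list's median log2 mean effect was -0.30 with housekeeping scaling and -0.19 with TMM scaling. Cd3d and Cd3e, chains of the receptor complex itself, did not pass either test.

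Cd5 encodes a receptor that dampens antigen receptor signals. Cd5 was at 447, 445 and 458 scaled counts in the control spleens, 361, 286 and 234 in the ampicillin spleens, 979, 1023 and 1108 in the control nodes and 736, 804 and 785 in the ampicillin nodes. Every treated sample lay below every control sample of its tissue. On average over both tissues the log2 effect was -0.52 ± 0.09 (SE), with an adjusted p of 0.0063 with housekeeping scaling and 0.0047 with TMM scaling.

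Cd6 encodes a related receptor that binds ALCAM on antigen-presenting cells. Cd6 was at 258, 238 and 243 scaled counts in the control spleens, 197, 136 and 124 in the ampicillin spleens, 588, 537 and 588 in the control nodes and 422, 449 and 430 in the ampicillin nodes. The groups did not overlap in either tissue, and ampicillin spleens 2 and 3 were the lowest of all samples. Averaged over both tissues, its log2 effect was -0.54 ± 0.10 (SE), with an adjusted p of 0.0065 with housekeeping scaling and 0.0047 with TMM scaling.

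Cd2, an adhesion receptor of T cells, had a log2 mean effect of -0.35 ± 0.07 (SE; adjusted p = 0.0083), Nfatc2, a calcium-dependent transcription factor, one of -0.39 ± 0.08 (adjusted p = 0.0083), and Cd4, the co-receptor of helper T cells, one of -0.30 ± 0.07 (adjusted p = 0.014). Cd4 met the criteria in 4 of the 12 fits that left out 1 sample and was lost with the replicate number as a block. In the nodes, the summed T cell markers ranged from 24094 to 25776 scaled counts in controls and from 21121 to 22914 after ampicillin, but that sum holds Cd2, Cd4, Cd5 and Cd6 themselves. Without the shared genes, a choice made after seeing the data, it ranged from 18395 to 19930 in control nodes and from 16522 to 17945 in ampicillin nodes. The part of this shift in the gene results was not tested.

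Of 19 tested costimulation genes, 6 fell with housekeeping scaling and 5 with TMM scaling, with none higher, against 20% and 9.89% lower among all tested genes. The 5 were Cd27, Icos, Tnfrsf4, Icosl and Cd274. Cd27, a TNF receptor family member that sustains T cell activation, was at 410, 389 and 421 scaled counts in the control spleens, 346, 239 and 241 in the ampicillin spleens, 850, 866 and 921 in the control nodes and 645, 721 and 628 in the ampicillin nodes. All 6 treated samples were below the controls of their tissue. The log2 mean effect of Cd27 was -0.48 ± 0.09 (SE), with an adjusted p of 0.0066 with housekeeping scaling and 0.0063 with TMM scaling.

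Icos, a costimulatory receptor of helper T cells, had an effect of -0.57 in spleen and -0.22 in nodes on the log2 scale. Its ligand gene Icosl had -0.42 in spleen and -0.26 in nodes. Cd274, which encodes the inhibitory ligand PD-L1, had -0.46 in spleen and -0.47 in nodes, and was at 373, 314 and 278 scaled counts in the control nodes and 208, 261 and 223 in the ampicillin nodes. Tnfrsf4, which encodes OX40, had -0.69 in spleen and -0.14 in nodes, where 163, 194 and 192 scaled counts after ampicillin overlapped 212, 206 and 185 in controls.

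Of 10 tested regulatory T cell genes, 5 fell with housekeeping scaling, against 20% lower among all tested genes. With TMM scaling 3 fell and 1 rose, against 9.89% lower and 11.9% higher. The 3 shared ones were Tnfrsf4, Foxp3, the lineage's transcription factor, and Folr4, which encodes folate receptor 4, a surface protein of these cells. Foxp3 was at 95.4, 78.5 and 82.2 scaled counts in the control spleens, 69.6, 57.0 and 39.7 in the ampicillin spleens, 152, 145 and 165 in the control nodes and 125, 115 and 130 in the ampicillin nodes. Treated and control samples did not overlap in either tissue on this scale. Its adjusted p was 0.016 with housekeeping scaling and 0.036 with TMM scaling, and it met the criteria in only 4 of the 12 fits that left out 1 sample. Folr4 had a log2 mean effect of -0.44 ± 0.10 (SE) and met them in 9 of the 12.

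The shared lower genes also held receptors outside these lists and 1 transcription factor. Il17rb, a receptor chain for interleukin 25, had the most negative mean effect of the shared genes, -0.58 ± 0.17 (SE), but was at 18.6 to 46.4 scaled counts in all samples and met the criteria in 3 of the 12 fits. Il21r, the interleukin 21 receptor, had -0.42 ± 0.10, Cxcr6, the receptor for CXCL16, had -0.45 ± 0.11, and Gata3, the transcription factor of type 2 helper T cells, had -0.40 ± 0.09. These 3 met the criteria in all 12 fits that left out 1 sample but not without both ampicillin spleens 2 and 3. Cxcr3 and Il27ra met them in 2 and 3 of the 12.

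**Figure D2:**
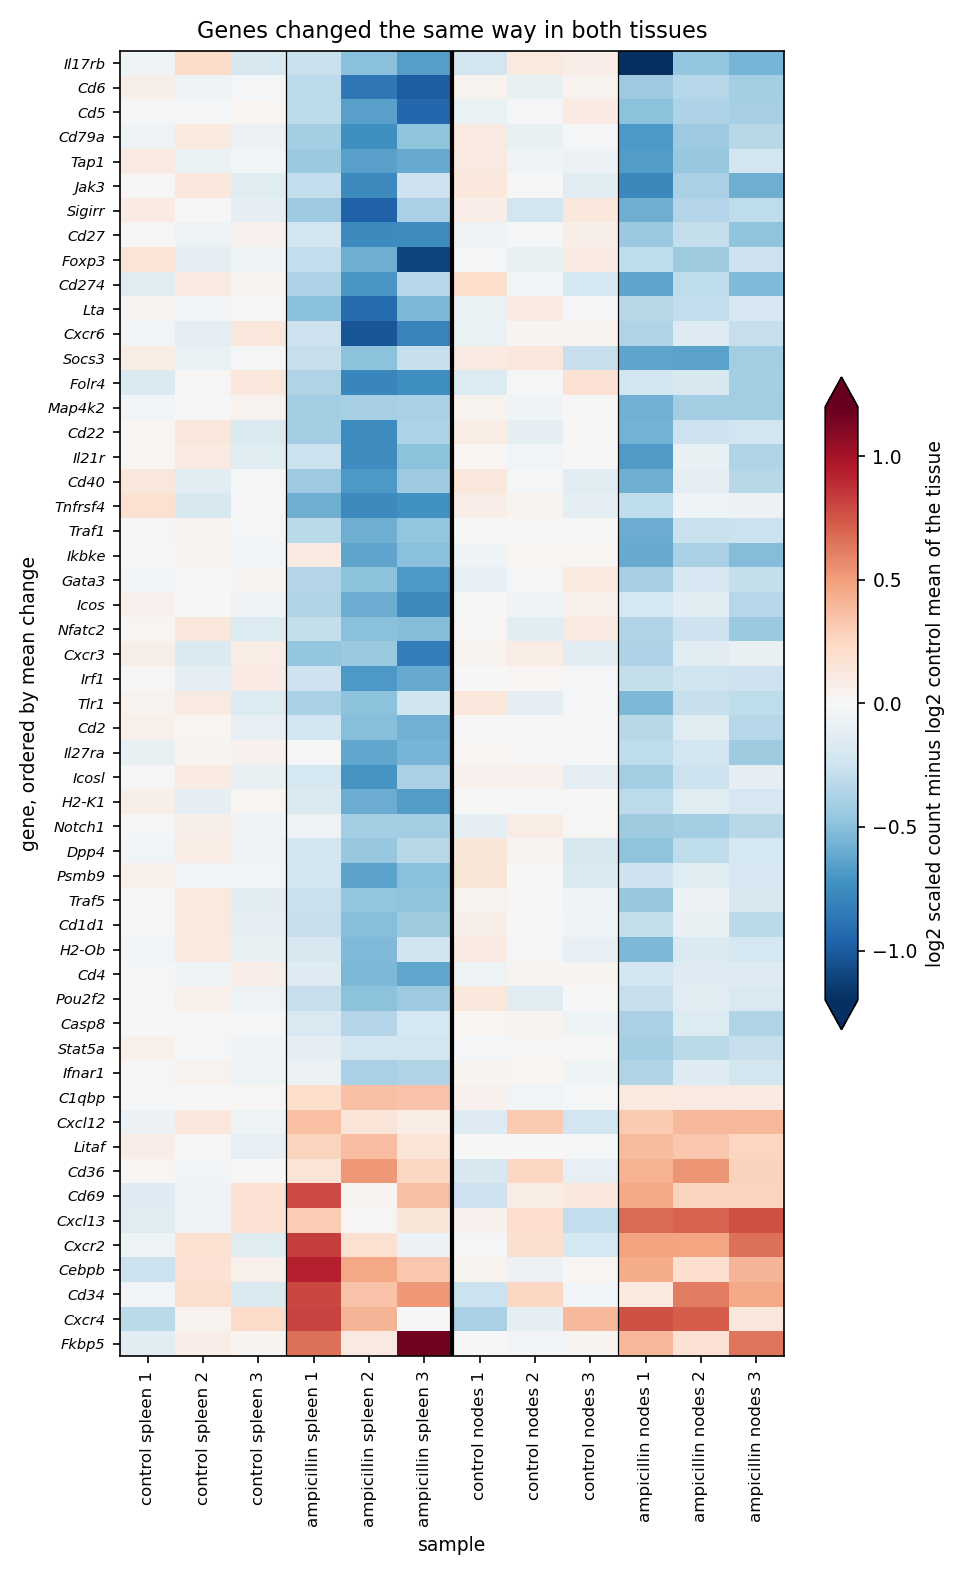
Colours give, for 53 of the 55 shared genes (y axis) and each sample (x axis), the log2 housekeeping-scaled count minus the log2 control mean of the same tissue. The falls are deepest in ampicillin spleens 2 and 3 and in ampicillin nodes 1, and several rises are largest in ampicillin spleen 1.

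Of 19 tested genes of the B cell receptor and its signalling, 8 fell with housekeeping scaling, whereas 4 fell and 2 rose with TMM scaling, against 20% and 9.89% lower among all tested genes. Those that fell with both included Cd79a, Cd22 and Pou2f2. The list's median log2 mean effect was -0.10 with housekeeping scaling and 0.01 with TMM scaling, close to the median of all tested genes with either.

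Cd79a encodes a signalling chain of the B cell receptor. Cd79a was at 180, 203 and 179 scaled counts in the control spleens, 142, 113 and 134 in the ampicillin spleens, 127, 111 and 116 in the control nodes and 72.9, 87.0 and 93.8 in the ampicillin nodes. No treated sample reached the control range in either tissue. Its log2 mean effect was -0.50 ± 0.10 (SE), with an adjusted p of 0.0083 with housekeeping scaling and 0.0082 with TMM scaling.

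Cd22, an inhibitory co-receptor of B cells, had an effect of -0.50 in spleen and -0.34 in nodes on the log2 scale. Pou2f2, which encodes the transcription factor OCT2, had -0.40 in spleen and -0.19 in nodes. The summed B cell markers were 28610 to 30048 scaled counts in the control spleens and 22528 to 26652 in the ampicillin spleens. In the nodes that sum was 14554 to 16806 in controls and 15176 to 16772 after ampicillin. The sum includes shared genes; without them it was 22518 to 24125 and 18402 to 21868 in control and ampicillin spleens, and 11233 to 12962 and 12699 to 13659 in control and ampicillin nodes. Its part in the gene results was not tested.

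Of 12 tested genes for MHC class I presentation, 4 fell with either scaling, against 20% and 9.89% lower among all tested genes: Tap1, Psmb9, H2-K1 and Cd1d1. None rose with housekeeping scaling, and 3 proteasome genes rose with TMM scaling. The list's median log2 mean effect, -0.10 with housekeeping and 0.01 with TMM scaling, equalled that of all tested genes. Tap1 encodes a subunit of the peptide transporter of the endoplasmic reticulum. Tap1 was at 1819, 1593 and 1650 scaled counts in the control spleens, 1240, 1077 and 1109 in the ampicillin spleens, 2286, 2070 and 2020 in the control nodes and 1340, 1552 and 1811 in the ampicillin nodes. Each treated sample was below all controls of its tissue. The mean log2 effect was -0.50 ± 0.08 (SE), which is 0.707 of control, with an adjusted p of 0.0048 with housekeeping scaling and 0.0044 with TMM scaling.

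Psmb9, an immunoproteasome subunit, had an effect of -0.44 in spleen and -0.20 in nodes on the log2 scale. H2-K1, a classical class I heavy chain, had -0.46 in spleen and -0.22 in nodes. Probes for class I genes may share target sequence with close family members, so the H2-K1 value is uncertain in that respect. Cd1d1, which presents lipids to NKT cells, had -0.40 in spleen and -0.23 in nodes. Of 9 tested class II genes, 1 fell and 0 rose with housekeeping scaling, and 1 fell and 2 rose with TMM scaling. Among all tested genes, 20% fell with housekeeping scaling, and 9.89% fell and 11.9% rose with TMM scaling. The 1 that fell with both was H2-Ob, a subunit of a peptide-loading modulator in B cells, with a log2 mean effect of -0.31 ± 0.08 (SE). H2-Ob met the criteria in 3 of the 12 fits that left out 1 sample.

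Of 25 tested interferon genes, 7 fell and 0 rose with housekeeping scaling, and 2 fell and 2 rose with TMM scaling, near the 20% and below the 9.89% lower among all tested genes. The shared ones were Irf1, a transcription factor induced by interferon gamma that controls class I genes, and Ifnar1, a chain of the type I interferon receptor. Irf1 was at 1801, 1637 and 1905 scaled counts in the control spleens, 1498, 1107 and 1170 in the ampicillin spleens, 2532, 2581 and 2521 in the control nodes and 2088, 2154 and 2140 in the ampicillin nodes. The groups did not overlap in either tissue. Averaged over both tissues, its log2 effect was -0.38 ± 0.07 (SE), with an adjusted p of 0.0083 with housekeeping scaling and 0.011 with TMM scaling. Ifnar1 had -0.25 ± 0.07 and met the criteria in 9 of the 12 fits.

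The start regions of 3 of these genes are shown because their counts were lower in both tissues and IRF1 is a known regulator of class I presentation genes. Tap1 and Psmb9 lie head to head, and their windows, chr17:34187306-34187605 on the plus strand and chr17:34187281-34187580 on the minus strand, share 275 bases. Windows of 300 bases around the annotated starts were taken from RefSeq (GRCm38.p6) and searched on both strands for the gamma-activated site TTCNNNGAA, the core of the interferon-stimulated response element (GAAA, any 2 bases and GAAA) and the kappaB motif, with matches in capitals. The printed Irf1 window, chr11:53769764-53770063 on the plus strand, held a gamma-activated site that starts 90 bases before the annotated start and a kappaB match 13 bases before it. Another Irf1 window, chr11:53770223-53770522, held no match. The printed H2-K1 window, chr17:34000284-34000583 on the minus strand, held a pair of overlapping kappaB matches from 125 bases before the start. It held no exact match to the gamma-activated site or the interferon-stimulated core as spelled above. Looser forms of these elements were not searched, so their absence is not shown. Another H2-K1 window, chr17:34000298-34000597, likewise matched only at a kappaB pair, from 111 bases before its start. The Tap1 and Psmb9 windows held no match to any of these motifs.
Tap1: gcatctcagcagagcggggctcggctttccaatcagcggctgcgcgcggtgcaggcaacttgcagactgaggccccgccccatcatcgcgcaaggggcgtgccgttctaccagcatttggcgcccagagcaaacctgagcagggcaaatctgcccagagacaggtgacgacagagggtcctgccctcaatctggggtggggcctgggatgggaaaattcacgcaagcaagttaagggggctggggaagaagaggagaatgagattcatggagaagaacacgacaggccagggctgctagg
Irf1: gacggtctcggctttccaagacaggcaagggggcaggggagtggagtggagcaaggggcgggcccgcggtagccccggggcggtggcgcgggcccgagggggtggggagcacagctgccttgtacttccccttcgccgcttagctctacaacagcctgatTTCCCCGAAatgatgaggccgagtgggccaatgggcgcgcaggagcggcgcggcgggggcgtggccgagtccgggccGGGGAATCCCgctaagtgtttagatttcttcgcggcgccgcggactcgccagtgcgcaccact
H2-K1: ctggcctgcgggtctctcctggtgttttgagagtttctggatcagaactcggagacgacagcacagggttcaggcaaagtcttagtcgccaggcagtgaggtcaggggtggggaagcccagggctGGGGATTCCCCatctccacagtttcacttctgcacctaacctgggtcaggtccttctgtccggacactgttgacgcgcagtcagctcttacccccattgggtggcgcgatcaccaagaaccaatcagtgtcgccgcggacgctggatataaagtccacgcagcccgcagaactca

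A window was given for 33 of the 43 shared lower genes. The gamma-activated site was found in 6 of the 33 (18.2%), in 13.9% of the 330 tested genes with a window and in 9.55% of all 27025 genes with a window. A gene counted when any of its windows held a match. The kappaB motif was found in 5 of the 33 (15.2%), in 14.2% of tested genes and in 9.55% of all genes with a window. The interferon-stimulated core was found in 1 (3.03%), against 7.58% and 3.99%. None of the 10 shared higher genes with a window held any of the 3. These are matches of letters and not sites shown to be bound.

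Of 20 tested JAK, STAT and SOCS genes, 7 fell and 0 rose with housekeeping scaling, and 3 fell and 1 rose with TMM scaling, against 20% and 9.89% lower among all tested genes. Jak3, Socs3 and Stat5a fell with both. Jak3 encodes the kinase of the common gamma chain of interleukin receptors. Jak3 was at 442, 478 and 395 scaled counts in the control spleens, 358, 259 and 370 in the ampicillin spleens, 727, 663 and 607 in the control nodes and 389, 509 and 443 in the ampicillin nodes. With housekeeping scaling, treated and control samples did not overlap, although ampicillin spleens 1 and 3 came close to the lowest control. With TMM scaling the Jak3 spleens overlapped, at 413 in ampicillin spleen 3 against 384 in control spleen 3. Over both tissues its log2 effect averaged -0.49 ± 0.10 (SE), with an adjusted p of 0.0083 with housekeeping scaling and 0.013 with TMM scaling.

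Socs3, a feedback inhibitor of cytokine signalling, had an effect of -0.34 in spleen and -0.55 in nodes on the log2 scale and met the criteria in 5 of the 12 fits that left out 1 sample. Stat5a, a transcription factor downstream of interleukin 2 and 7, had -0.19 in spleen and -0.34 in nodes. With TMM scaling the spleen estimate of Stat5a was only -0.01, and it met the criteria in 1 of the 12 fits.

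Map4k2 encodes a kinase upstream of the JNK pathway. Map4k2 was at 632, 647 and 665 scaled counts in the control spleens, 486, 491 and 495 in the ampicillin spleens, 720, 676 and 701 in the control nodes and 470, 524 and 522 in the ampicillin nodes. The 3 ampicillin spleens were nearly equal, and all treated samples lay well below the controls of their tissue. On average over both tissues the log2 effect was -0.43 ± 0.05 (SE), with an adjusted p of 0.00048 with housekeeping scaling and 0.0044 with TMM scaling. It was also the 1 gene (0.225% of those tested) that passed, after adjustment, in each tissue taken separately with housekeeping scaling, with log2 effects of -0.40 in spleen and -0.47 in nodes. With TMM scaling 0 genes did so, while 46 (10.3%) with housekeeping and 47 (10.6%) with TMM scaling had an unadjusted edgeR p under 0.05 in each tissue.

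Of 21 tested NF-kB, IKK and TRAF genes, 7 fell with housekeeping scaling and 4 with TMM scaling, with none higher, against 20% and 9.89% lower among all tested genes. Traf1, an adaptor of TNF receptors, was at 369, 382 and 366 scaled counts in the control spleens, 297, 249 and 268 in the ampicillin spleens, 584, 585 and 586 in the control nodes and 387, 487 and 490 in the ampicillin nodes. The 3 control nodes were nearly equal and all treated samples lay below their controls. Traf1 had a log2 mean effect of -0.41 ± 0.07 (SE), and Traf5, an adaptor of CD27 and OX40 among others, had -0.32 ± 0.07. Ikbke, an IKK-related kinase, had -0.40 ± 0.10, with 448 scaled counts in ampicillin spleen 1 against 417, 432 and 409 in the control spleens. Nfkbiz, a nuclear regulator of NF-kB, passed the mean test with both scalings but is not counted as shared, since its spleen estimate was -0.17 with housekeeping and 0.002 with TMM scaling, against -0.44 in nodes with housekeeping scaling.

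Of 16 tested genes for lymphotoxin, TNF ligands and lymphoid chemokines, 1 was shared lower and 3 were shared higher. Among all tested genes, 9.66% were shared lower and 2.70% shared higher. Lta encodes lymphotoxin alpha, the lymphocyte cytokine that maintains follicles. Lta was at 310, 298 and 303 scaled counts in the control spleens, 215, 161 and 208 in the ampicillin spleens, 304, 344 and 315 in the control nodes and 255, 261 and 279 in the ampicillin nodes. The groups did not overlap in either tissue. Its log2 mean effect was -0.46 ± 0.08 (SE), with an adjusted p of 0.0065 with housekeeping scaling and 0.0093 with TMM scaling.

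Cxcl13 encodes the follicular chemokine that attracts B cells. Cxcl13 was at 3282, 3524 and 4091 scaled counts in the control spleens, 4481, 3677 and 4012 in the ampicillin spleens, 1411, 1561 and 1112 in the control nodes and 2185, 2229 and 2320 in the ampicillin nodes. With housekeeping scaling the nodes did not overlap, while the spleens did. With TMM scaling neither tissue overlapped. The mean log2 effect was 0.44 ± 0.09 (SE), with an adjusted p of 0.0083 with housekeeping scaling and 0.0044 with TMM scaling. The effect was 0.16 in spleen and 0.72 in nodes, a difference with an unadjusted p of 0.0072 that did not pass after adjustment by edgeR (adjusted p = 0.31).

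Cxcl12, a stromal chemokine, was at 6965, 7986 and 6999 scaled counts in the control spleens, 9420, 8167 and 7789 in the ampicillin spleens, 3781, 5233 and 3595 in the control nodes and 5211, 5496 and 5555 in the ampicillin nodes. With housekeeping scaling, 1 treated sample in each tissue fell within the control range. With TMM scaling the groups did not overlap in either tissue. Averaged over both tissues, its log2 effect was 0.29 ± 0.09 (SE; adjusted p = 0.037), and it met the criteria in 4 of the 12 fits that left out 1 sample. Cxcr4, the receptor for CXCL12, had 0.51 ± 0.17 with widely spread samples, from 1606 to 2765 scaled counts in the control nodes and from 2322 to 3577 in the ampicillin nodes, and also met them in 4.

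**Figure D3:**
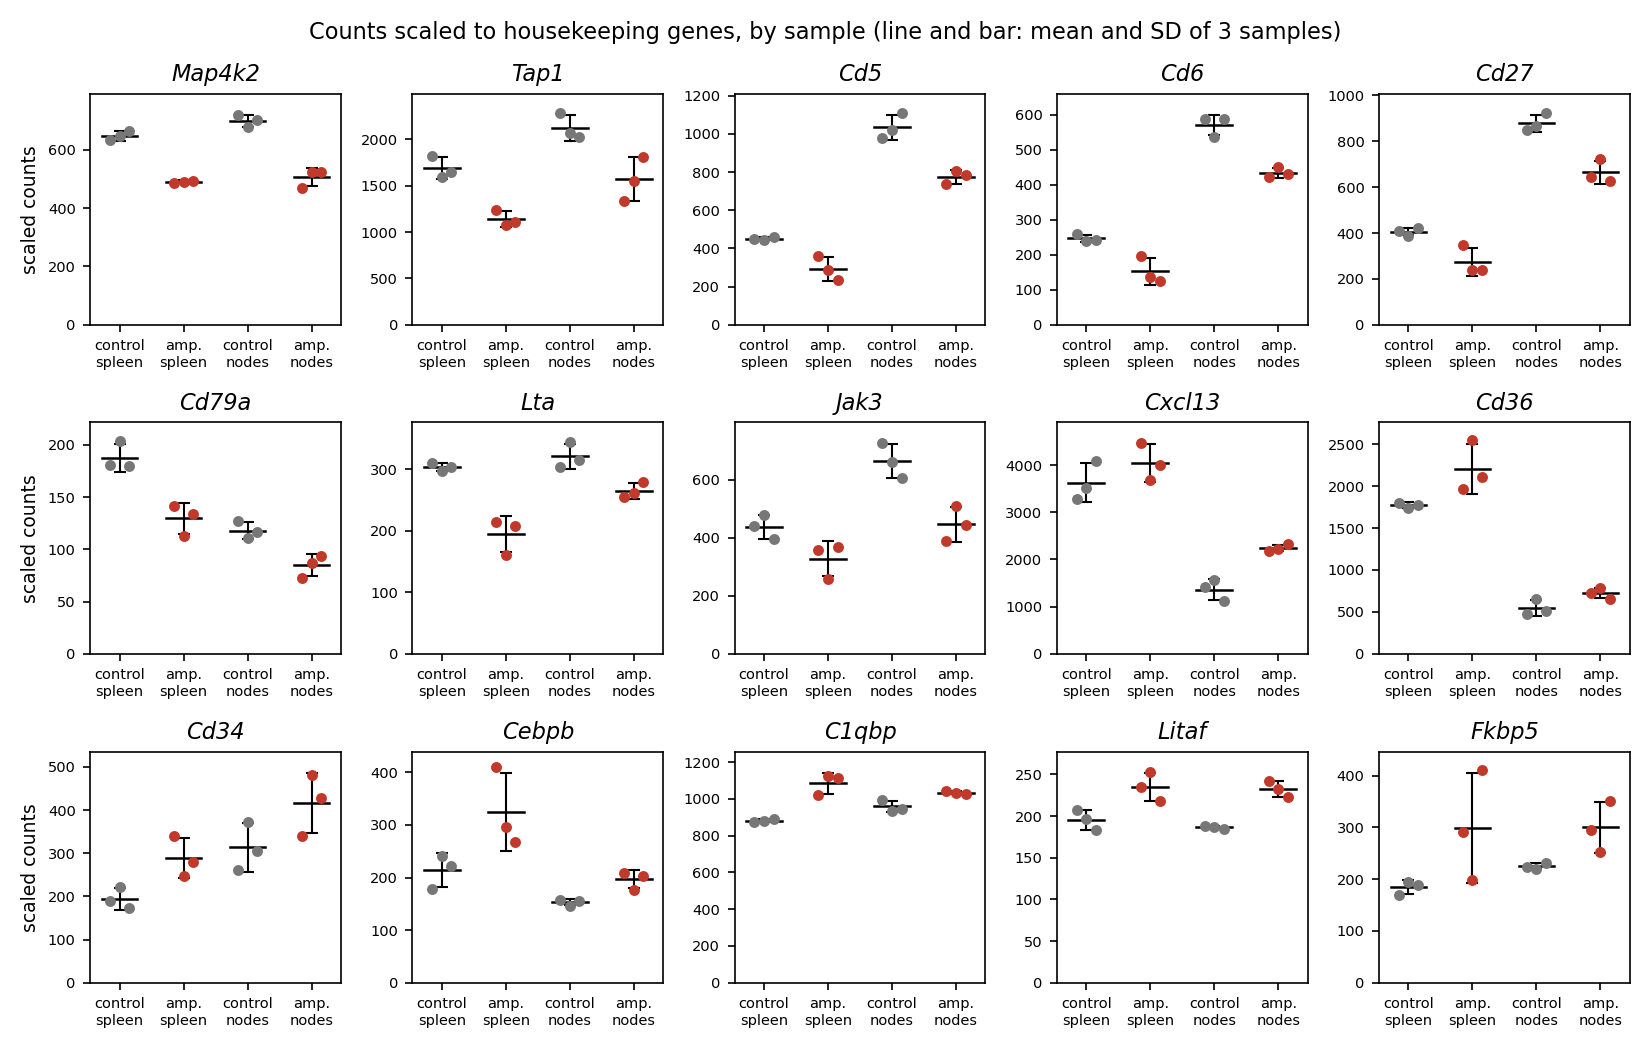
Housekeeping-scaled counts (y axis, from 0) of 15 shared genes in each sample, by group on the x axis, with controls in grey, ampicillin samples in red, and line and bar giving the mean and SD of 3 samples. Map4k2 and Cd6 show treated samples below controls in both tissues, and Litaf and C1qbp show them above.

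Cd34, a surface marker of endothelial and progenitor cells, was at 190, 222 and 172 scaled counts in the control spleens, 339, 247 and 279 in the ampicillin spleens, 262, 373 and 306 in the control nodes and 341, 480 and 428 in the ampicillin nodes. With housekeeping scaling the spleens did not overlap, whereas ampicillin nodes 1 lay within the control range. With TMM scaling neither tissue overlapped. Over both tissues its log2 effect averaged 0.49 ± 0.12 (SE), which is 1.41-fold, with an adjusted p of 0.013 with housekeeping scaling and 0.0047 with TMM scaling. Of 11 tested stromal and endothelial markers, Cd34, Cxcl13 and Cxcl12 rose with both scalings and 6 rose with TMM scaling. Among all tested genes, 2.70% were shared higher and 11.9% rose with TMM scaling. The summed stromal markers ranged from 16429 to 17957 scaled counts in the control spleens and from 17841 to 20995 in the ampicillin spleens, and from 11328 to 14758 in the control nodes and 14390 to 16247 in the ampicillin nodes. That sum holds the 3 risers themselves. Without them the other 8 tested markers overlapped between groups, at 5992 to 6225 in control and 5760 to 6755 in ampicillin spleens, and 6315 to 7591 in control and 6653 to 7944 in ampicillin nodes.

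Of 8 tested neutrophil markers, Cebpb and Cxcr2 rose with both scalings and 0 fell, against 2.70% shared higher among all tested genes. Of 15 tested monocyte and macrophage markers, 1 fell and 0 rose with housekeeping scaling and 2 rose with TMM scaling. Among all tested genes, 20% fell and 2.92% rose with housekeeping scaling, and 11.9% rose with TMM scaling. Cebpb encodes a transcription factor of granulocyte and macrophage differentiation. Cebpb was at 179, 241 and 223 scaled counts in the control spleens, 410, 296 and 268 in the ampicillin spleens, 158, 146 and 156 in the control nodes and 210, 177 and 204 in the ampicillin nodes. All treated samples were above their controls, ampicillin spleen 1 by the most. On average over both tissues the log2 effect was 0.48 ± 0.12 (SE), with an adjusted p of 0.013 with housekeeping scaling and 0.0047 with TMM scaling.

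Cxcr2, the neutrophil chemokine receptor, had a log2 mean effect of 0.46 ± 0.15 (SE; adjusted p = 0.047). Cxcr2 was at 252 scaled counts in ampicillin spleen 1 but at 161 and 135 in ampicillin spleens 2 and 3, within the control range of 128 to 161. With TMM scaling its groups did not overlap in either tissue. Cxcr2 met the criteria in 1 of the 12 fits that left out 1 sample. The summed neutrophil markers overlapped between groups, at 16497 to 25629 scaled counts in the control spleens and 13417 to 27354 in the ampicillin spleens. That sum holds Cebpb and Cxcr2 themselves. Without them the other 6 tested markers summed to 16130 to 25198 in the control spleens. In ampicillin spleens 1, 2 and 3 they summed to 12743, 18936 and 26916, lowest in the spleen where Cebpb and Cxcr2 were highest. In the nodes they summed to 7899 to 8385 in controls and 7628 to 8299 after ampicillin.

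Cd36, a scavenger receptor for lipids on macrophages, endothelium and platelets, was at 1805, 1736 and 1777 scaled counts in the control spleens, 1969, 2547 and 2104 in the ampicillin spleens, 477, 649 and 509 in the control nodes and 729, 786 and 660 in the ampicillin nodes. Treated and control samples did not overlap in either tissue. Its log2 mean effect was 0.37 ± 0.09 (SE), with an adjusted p of 0.013 with housekeeping scaling and 0.0093 with TMM scaling.

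Litaf encodes a regulator of endosomal traffic that was named for its link to TNF induction by lipopolysaccharide. Litaf was at 207, 197 and 183 scaled counts in the control spleens, 235, 252 and 218 in the ampicillin spleens, 188, 187 and 185 in the control nodes and 243, 233 and 223 in the ampicillin nodes. Every treated sample was above every control of its tissue. Averaged over both tissues, its log2 effect was 0.29 ± 0.07 (SE), with an adjusted p of 0.013 with housekeeping scaling and 0.0047 with TMM scaling.

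Of 19 tested complement genes, 2 fell and 2 rose with housekeeping scaling, against 20% lower and 2.92% higher among all tested genes. With TMM scaling 0 fell and 7 rose, against 9.89% and 11.9%. Cd55, 1 of the fallers with housekeeping scaling, had a log2 mean effect of -0.25 ± 0.06 (SE, edgeR adjusted p = 0.014). With TMM scaling Cd55 had -0.13 and did not pass. C1qbp, a mitochondrial protein first found as a binder of C1q, was at 873, 880 and 891 scaled counts in the control spleens, 1019, 1122 and 1115 in the ampicillin spleens, 996, 935 and 945 in the control nodes and 1041, 1032 and 1026 in the ampicillin nodes. The groups did not overlap, by a small margin in the nodes. Its log2 mean effect was 0.20 ± 0.05 (SE), the smallest among the shared higher genes, with an adjusted p of 0.013 with housekeeping scaling and 0.0063 with TMM scaling.

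Fkbp5 encodes a co-chaperone of the glucocorticoid receptor and is a common target of that receptor. Fkbp5 was at 169, 195 and 189 scaled counts in the control spleens, 291, 198 and 410 in the ampicillin spleens, 224, 219 and 231 in the control nodes and 296, 253 and 352 in the ampicillin nodes. All treated samples were above their controls, ampicillin spleen 2 by only a few counts. The mean log2 effect was 0.56 ± 0.15 (SE), which is 1.48-fold and the largest of the shared rises with housekeeping scaling, with an adjusted p of 0.016 with housekeeping scaling and 0.013 with TMM scaling. Cd69, an early activation marker that holds lymphocytes in tissue, had 0.39 ± 0.13 (adjusted p = 0.047) and met the criteria in 2 of the 12 fits.

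**Figure D4:**
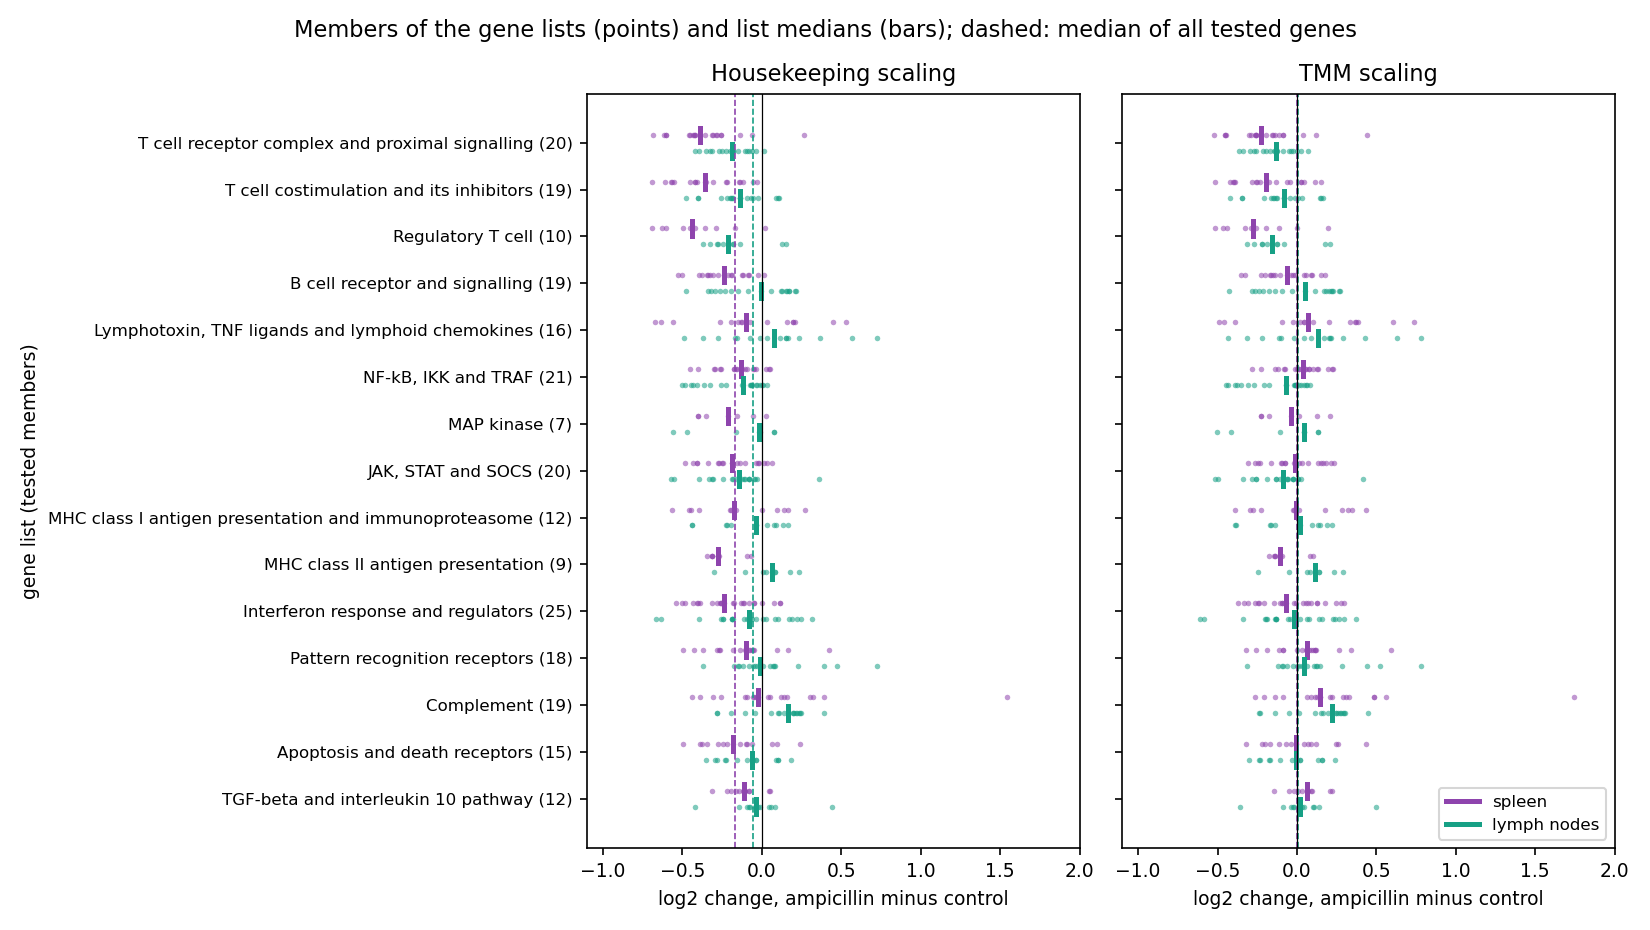
Points give the log2 ampicillin effect (x axis) of each tested member of the gene lists (y axis, tested members in parentheses) in spleen (purple) and nodes (green), with bars at list medians and dashed lines at the medians of all tested genes. The T cell lists lie to the left of the dashed lines in both tissues and both panels, and the complement list to the right.

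The remaining shared lower genes belonged to varied roles. Sigirr, an inhibitor of interleukin 1 and Toll-like receptor signals, had a log2 mean effect of -0.49 ± 0.11 (SE). Tlr1, a receptor for bacterial lipopeptides, had -0.37 ± 0.07, and was the only shared gene among 18 tested pattern recognition genes. Casp8, the initiator caspase of death receptors, had -0.27 ± 0.06 and was the only shared one of 15 apoptosis genes; it met the criteria in 5 of the 12 fits that left out 1 sample and was lost with the replicate number as a block. Cd40, the receptor for T cell help on B cells, had -0.42 ± 0.09, Notch1, a receptor in lymphocyte fate decisions, had -0.33 ± 0.07 and Dpp4, a surface peptidase of T cells, had -0.33 ± 0.07. None of the 12 tested TGF-beta and interleukin 10 genes was shared, though Runx3 fell with housekeeping scaling. For these lists too, the share among all tested genes was 9.66% shared lower and 2.70% shared higher.

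Genes called with 1 scaling alone kept their sign with the other and lost the call. Casp1, an inflammatory caspase, had a log2 mean effect of -0.28 ± 0.06 (SE; adjusted p = 0.0083) with housekeeping scaling and -0.16 (adjusted p = 0.052) with TMM scaling. Slamf1, a lymphocyte adhesion receptor, had -0.51 ± 0.12 (adjusted p = 0.013) and -0.38 (adjusted p = 0.053). In the other direction, Il7r, the interleukin 7 receptor, had 0.32 (adjusted p = 0.0070) with TMM scaling and 0.21 ± 0.09 (adjusted p = 0.10) with housekeeping scaling. Cd74, the class II invariant chain, had 0.19 (adjusted p = 0.014) and 0.07 ± 0.07 (adjusted p = 0.46).

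The tissues were compared directly through the difference of their effects. No gene passed this test with either scaling in edgeR (0 of 445), while 49 (11%) had an unadjusted p under 0.05 with each. With housekeeping scaling, 3 shared lower genes, Tnfrsf4, Lta and Icos, and 1 shared higher gene, Cxcl13, had an unadjusted p under 0.05. With TMM scaling, Tnfrsf4, Stat5a, C1qbp and Cxcl13 did. The lowest adjusted p among the shared genes was 0.31 with either. With housekeeping scaling, 33 of the 43 shared lower genes had the larger fall in spleen, against 25 with TMM scaling. Taken by tissue, 75 genes (16.9%) passed in spleen and 2 (0.449%) in nodes with housekeeping scaling, and 22 (4.94%) and 32 (7.19%) with TMM scaling, so the tissue with more calls changed with the reference. Ccrl2, a chemokine-binding receptor, is not counted as shared because its effect was 1.43 in spleen and -0.02 in nodes with housekeeping scaling.

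Within the treated groups, the shared genes did not move by the same amount in each sample. Averaged over the 43 lower genes, ampicillin spleens 1, 2 and 3 lay -0.28, -0.61 and -0.53 from the control mean on the log2 scale with housekeeping scaling, and -0.24, -0.37 and -0.29 with TMM scaling. Ampicillin nodes 1, 2 and 3 lay at -0.46, -0.25 and -0.31, and at -0.32, -0.24 and -0.29 with TMM scaling. The samples with the deepest falls were those in which the ratio of the TMM to the housekeeping factor was lowest, at 0.892 and 0.894 in ampicillin spleens 2 and 3 and 0.920 in ampicillin nodes 1, against 0.997 to 1.08 in controls; its part in the result was not tested. The 12 higher genes averaged 0.56, 0.27 and 0.29 in ampicillin spleens 1, 2 and 3, and 0.41, 0.40 and 0.37 in the nodes, with housekeeping scaling. With TMM scaling they averaged 0.61, 0.51 and 0.54 in the spleens and 0.55, 0.41 and 0.39 in the nodes, so the samples differed less in the spleen. Among the 3 ampicillin spleens, the first had the smallest falls and the largest rises with both scalings.

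Leaving out 1 sample at a time, 25 of the 43 lower genes and 7 of the 12 higher genes met the criteria in all 12 fits. The number of shared genes was lowest, at 35, without control spleen 1, and highest, at 64, without ampicillin spleen 1. Without both ampicillin spleens 2 and 3, a choice made after seeing the data, 26 of the 55 genes were kept, 16 lower and 10 higher. The lower ones were Cd5, Cd6, Cd2, Cd27, Cd274, Cd79a, Cd22, Cd40, Tap1, Jak3, Map4k2, Traf1, Lta, Sigirr, Tlr1 and Casp8, and the 2 higher ones lost were C1qbp and Cd36. Irf1, Psmb9, H2-K1, Foxp3, Icos, Il21r, Cxcr6 and Gata3 were among the lower genes lost. On the housekeeping scale, the spleen effect without both was -0.32 for Cd5 (-0.62 with all samples), -0.32 for Cd6 (-0.69), -0.23 for Cd27 (-0.56), -0.30 for Foxp3 (-0.63), -0.25 for Irf1 (-0.50), -0.17 for H2-K1 (-0.46) and -0.16 for Cd4 (-0.42). It moved less for Map4k2, at -0.41 (-0.40), Tap1, at -0.44 (-0.56), Lta, at -0.50 (-0.63), Jak3, at -0.29 (-0.41), and Cd79a, at -0.40 (-0.53). Among the higher genes it was 0.94 for Cebpb (0.60), 0.80 for Cd34 (0.57), 0.30 for Cxcl13 (0.16), 0.83 for Cxcr2 (0.37), 0.15 for Cd36 (0.32), 0.66 for Fkbp5 (0.71), 0.26 for Litaf (0.26) and 0.21 for C1qbp (0.30). The spleen estimate in ampicillin spleen 1 alone had the same sign as before, with both scalings, for 41 of the 43 lower genes, the exceptions being Ikbke and Il27ra, and for 12 of the 12 higher genes.

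**Figure D5:**
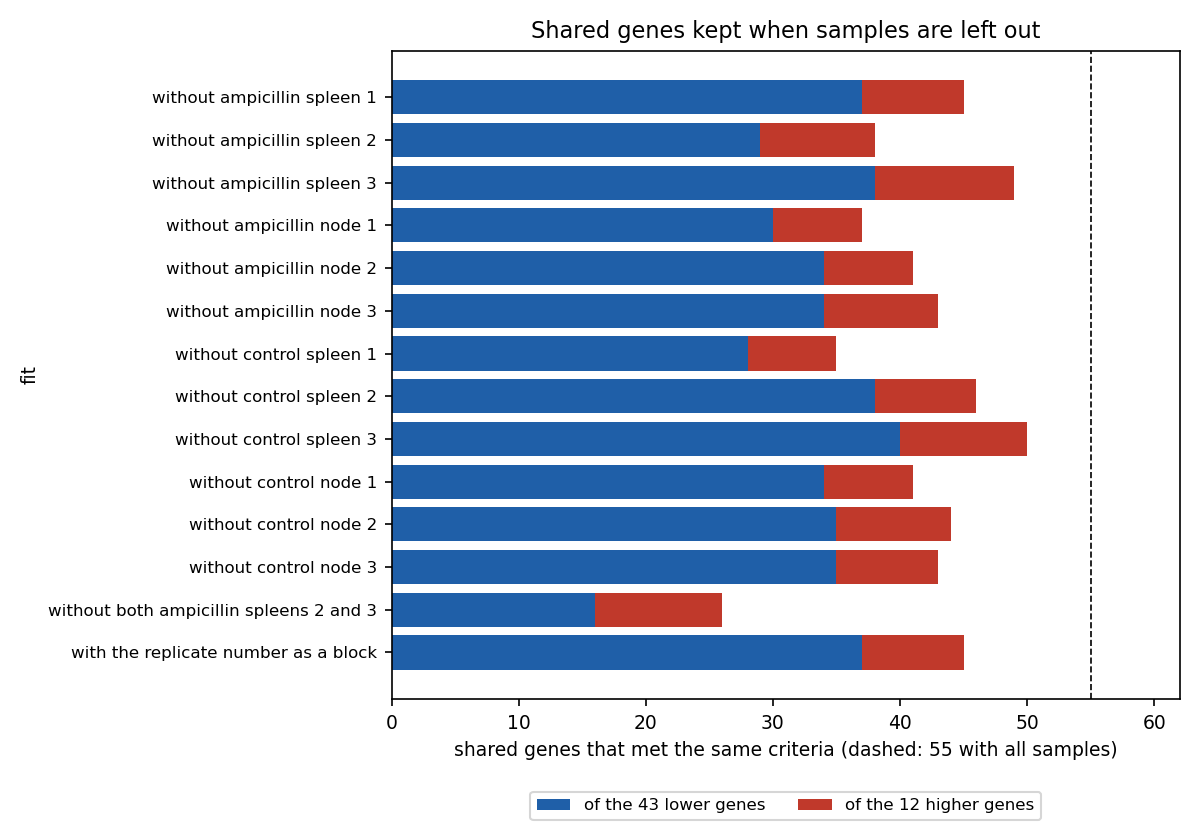
Bars count the shared genes that met the same criteria (x axis) in each fit that left out samples or added the replicate number as a block (y axis), split into the 43 lower (blue) and 12 higher (red) genes, with a dashed line at 55. The shortest bar, 26 genes, is the fit without both ampicillin spleens 2 and 3.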

How the data were processed

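The deposited values are whole-number counts per gene. The labels' design text says that the authors normalized to 14 housekeeping genes in nSolver, but the values sum to different totals and were used as unnormalized counts; another 12 columns matched no sample label and were not used. Gene symbols are those of the file. Counts were scaled by the geometric mean of the panel's housekeeping genes, or by TMM factors over the other genes. The housekeeping set was taken from the panel's known content, since no label lists it. Tests covered the 445 of 547 genes whose mean reached 20 scaled counts, leaving out 102. edgeR 4.0.16 in R 4.3.3 fitted 4 group means (quasi-likelihood, 8 residual degrees of freedom), with Benjamini-Hochberg adjustment over all 445 genes at 0.05, and limma 3.58.1 and DESeq2 1.42.0 served as alternatives. Counts were simulated with the same change in both tissues, independent noise and the housekeeping factors taken as exact. In them the mean-effect test with housekeeping scaling recovered 71.6% of genes changed 1.25-fold, 89.6% at 1.5-fold and 98.5% at 2-fold. Deviations of a sample across many genes and the criteria for shared genes were not simulated, so these rates do not apply to the shared genes.

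Members and gene lists were chosen with earlier results of these data known. Named genes are the 14 shared genes with the largest fall and all 12 that rose, with values per sample for the 7 each way of smallest adjusted p; genes called with both scalings whose tissues have opposite signs; up to 5 of smallest p for each scaling alone; genes past the test in each tissue; and up to 3 of each list. Other shared genes, and some values per sample, were added after values were seen. Of the shared genes, 2 count in the totals but are not reported here. Promoter windows come from RefSeq (GRCm38.p6), found for 43 of the 55 shared genes. The labels number 12 mice, so p-values measure the spread between mice.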

Additional observations from a re-analysis of the deposited data

How the results depend on the processing

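The mean effect gave 102 calls with edgeR and housekeeping scaling, 109 and 100 with DESeq2, 92 with limma, and 37 without both ampicillin spleens 2 and 3. Higher calls went from 13 to 53 with TMM, 60 with median scaling, 55 with DESeq2's own size factors and 8 with limma, and lower calls from 89 to 44, 32 and 45, and to 22 without both spleens. In spleen the 75 calls became 22 with TMM, 15 with median scaling, 44 with limma, 41 with the replicate number as a block, 6 without both spleens and 0 in the 6 spleens fitted alone. In nodes the 2 calls became 32 with TMM, 19 with median scaling, 22 and 44 with DESeq2, 0 with the block, 33 without both spleens and 15 in the 6 nodes alone. Past the test in each tissue was 1 gene, Map4k2, and 0 with TMM, median scaling, no filter, limma, the block or without both spleens, and DESeq2 called 2. The difference test called 0, or 1 without both spleens, TMM calls of the mean effect fell from 97 to 53 without both, and the shared genes from 55 to 32. Leaving out 1 sample, the mean effect ranged from 67 (control node 1) to 157 (ampicillin spleen 1), higher calls from 7 to 19, lower from 59 to 138, spleen from 0 to 159, nodes from 0 to 32, the difference from 0 to 59 (ampicillin spleen 1), each tissue from 0 to 8, TMM calls from 56 to 116 and shared genes from 35 to 64. Il10rb and Tgfbr2, neither of them called, changed sign to 0.0063 and 0.018 with median scaling. Same-numbered samples did not deviate together (3 of 18 pairs had a correlation over 0.1), so the numbers are not taken as pairs; with the block, 89 genes were called in the mean effect, 80 with TMM, and 47 were shared, of which 45 were among the 55. Among the 42 shared genes named by the rule, 836 of 921 alternative values stayed on the same side of the threshold, 85 lost the call and 0 reversed. The causes were not tested. The fits without both spleens, of 1 tissue alone and of the shared or TMM calls with the block were chosen after seeing the data.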

Other observations

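Genes of the complement cascade, which opsonizes and lyses microbes, were among those higher with TMM scaling alone. Beside C1qbp, the log2 mean effect with TMM scaling was 0.29 ± 0.06 (SE) for C1s and 0.23 ± 0.06 for C1ra, the proteases of the C1 complex, 0.31 ± 0.07 for Serping1, their inhibitor, 0.23 ± 0.07 for C3, the central component, and 0.20 ± 0.07 for Cfb, a protease of the alternative pathway. Each was above 0 in both tissues, with edgeR adjusted p from 0.007 for C1s to 0.047 for Cfb. With housekeeping scaling the same genes had 0.18, 0.12, 0.20, 0.12 and 0.09, and none passed. These genes were picked after their values were seen. With TMM scaling, 7 of the 19 tested complement genes rose, against 11.9% of all tested genes. The 14 housekeeping genes, under the same scaling, had a median log2 mean effect of 0.15, with a highest value of 0.22, and 2 of them were called higher.

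Ccl19, the chemokine of T cell zones, had a log2 mean effect of 0.29 ± 0.09 (SE) with TMM scaling and 0.17 with housekeeping scaling, where it did not pass.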
